A study of Mus musculus with 12 samples.

Results

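A set of 10 genes of hepcidin and iron handling was followed through RNA sequencing of mouse hepatocytes, and all of them were found by symbol among the 52636 genes of the deposited table. They are Hamp and Hamp2, Bmp6, Hfe, Tfr2, Tfrc, Trf, Slc40a1, Fth1 and Ftl1, a set defined by gene function and drawn up with earlier results of these data known. The study concerns the receptor phosphatase PTPRK in glycolysis and lipogenesis of the obese liver. Steatotic livers of 3 wild-type (WT) and 3 PTPRK knockout (KO) mice were each split by Percoll gradient and centrifugation into hepatocytes of low and of high fat content, and polyA RNA of both was sequenced. The 12 libraries thus form 4 groups of 3, a low-fat and a high-fat group for each genotype, and both fractions of a mouse carry the same mouse name in the labels. Every group comes from steatotic liver. Strain, age, sex, diet and the way the knockout was made are not given in the sources used here.

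Hepcidin, the product of Hamp, is a peptide hormone that hepatocytes secrete when iron is plentiful or inflammation is present. It binds ferroportin, the iron exporter encoded by Slc40a1, and causes its degradation, which keeps iron inside macrophages, enterocytes and hepatocytes. BMP6 and BMP2, made largely by sinusoidal endothelial cells of the liver, drive Hamp transcription through SMAD proteins, and HFE and transferrin receptor 2 (Tfr2) take part in sensing iron-loaded transferrin. Inside the cell, iron regulatory proteins bind hairpins called iron-responsive elements, blocking translation of ferritin and ferroportin messages and protecting the message of transferrin receptor 1 (Tfrc) when iron is scarce.

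The promoters of both hepcidin genes are shown because these genes share most of their sequence and yet differed in level from mouse to mouse in these libraries. Each stretch runs from position -130 to -11 before the start of the RefSeq gene (GRCm38.p6, chromosome 7, minus strand). Hamp lies at chr7:30944040-30944159 and Hamp2 at chr7:30924192-30924311. The GENCODE M21 annotation starts Hamp2 farther upstream, at 30924681, so the Hamp2 stretch lies within that gene. Its positions hold for the RefSeq start alone. Capitals mark the GGCGCC core of a BMP-responsive element, or the bases aligned to it, followed by a match to the STAT motif TTCNNNGAA.
Hamp: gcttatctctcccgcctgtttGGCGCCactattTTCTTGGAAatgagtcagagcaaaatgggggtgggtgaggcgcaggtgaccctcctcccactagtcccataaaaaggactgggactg
Hamp2: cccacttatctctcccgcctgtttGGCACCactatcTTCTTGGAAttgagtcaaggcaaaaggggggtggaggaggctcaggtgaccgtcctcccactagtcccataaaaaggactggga
The 250 bases before the starts were 91.9% identical, with 227 of 247 aligned bases the same. The GGCGCC of Hamp starts at -109, and the aligned bases of Hamp2 at -106 differ from it by G4A, counted from the first base of the motif. The STAT match starts at -97 in Hamp and at -94 in Hamp2. Both motifs were searched on both strands. GGCGCC occurred in 9.59% and TTCNNNGAA in 7.02% of 32851 promoters of 250 bases, and of the 8 members with a promoter in the RefSeq table Tfrc also held a GGCGCC, at -89. A match is a description of letters and not evidence of a bound factor.

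The second set of sequences shows which messages of the set carry hairpins of the iron-responsive kind, since Tfrc, the ferritins and ferroportin are the members read by iron regulatory proteins. The search was for a C, a stem strand of 5 bases, the loop CAGTGN in capitals and 5 bases able to pair with the first strand, with G-T pairs allowed, on the transcript strand of GENCODE M21 (GRCm38). The hairpins of Fth1, Ftl1 and Slc40a1 lie in the 5′ UTR and those of Tfrc in the 3′ UTR.
Fth1 (chr19:9982738-9982754, plus strand): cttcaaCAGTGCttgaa
Ftl1 (chr7:45459785-45459801, minus strand): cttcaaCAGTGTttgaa
Slc40a1 (chr1:45925471-45925487, minus strand): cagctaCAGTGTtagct
Tfrc 1 (chr16:32631225-32631241, plus strand): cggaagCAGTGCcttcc
Tfrc 2 (chr16:32631604-32631620, plus strand): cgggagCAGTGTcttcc
Tfrc 3 (chr16:32631669-32631685, plus strand): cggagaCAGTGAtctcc
Tfrc 4 (chr16:32631716-32631732, plus strand): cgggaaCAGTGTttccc
Such a hairpin was found in the 5′ UTR of 31 of 20597 annotated genes (0.151%) and in the 3′ UTR of 129 of 20995 (0.614%). The other 6 members held none.

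The values are gene reads scaled by the authors to 20 M (mega) per library, and the depth estimated from the spacing of the values was 15.1 to 25.0 M reads. Ptprk, the targeted gene, was at 2174 to 2883 in WT and 1117 to 1364 in KO libraries, so that no KO library reached a WT library. The deleted part of the gene is not given in the sources used here, and reads outside it would not report on the deletion. The 8 hepatocyte markers summed to 677919 to 858275 over the 12 libraries. Of these, Cyp2e1 was called higher in high-fat libraries over both genotypes (log2 difference 0.70, limma adjusted p = 0.0316), and Hnf4a was called lower with a term for each mouse (-0.32, limma adjusted p = 0.0428, against 0.171 without). Other cell types were present at lower levels and were not equal between fractions: the 8 sinusoidal endothelial markers summed to 1150 to 3211 in low-fat and 5030 to 14580 in high-fat libraries, the 9 Kupffer cell markers to 470 to 1341 and 2109 to 11426, and the 8 stellate cell markers to 145 to 695 and 2141 to 3632. The highest endothelial and Kupffer sums were those of the high-fat libraries of the mice numbered 1 in both genotypes. These mice also stood apart in several members, as given below. The 5 nuclear-retained transcripts, a sign of RNA or cell quality, summed to 174409 and 179112 in the same high-fat libraries of WT and KO mouse 1, to 39540 to 47307 in the libraries of mice numbered 3, and to 46640 to 146285 in the others. Their part in the results was not tested.

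Hepcidin itself differed far more between mice than between fractions or genotypes. Hamp (chromosome 7, 30942368 to 30944032, minus strand, GRCm38) was at 3799, 6492 and 6250 reads per 20 M in the low-fat libraries of WT mice 1, 2 and 3, and at 2829, 5731 and 5592 in their high-fat libraries. In KO mice 1, 2 and 3 it was at 1322, 7824 and 6862 in low-fat and 1260, 6676 and 8611 in high-fat libraries. KO mouse 1 was the lowest in both fractions, WT mouse 1 the next lowest, and all groups overlapped. From the highest down, the group means were 5516 ± 3810 in KO high-fat, 5514 ± 1490 in WT low-fat, 5336 ± 3509 in KO low-fat and 4717 ± 1637 in WT high-fat libraries (SD over 3 mice), and no neighbours in that order differed by more than the spread within a group. The high-fat to low-fat ratio of a mouse lay between 0.745 and 1.25, while the mean of both libraries differed 5.99-fold between the lowest and the highest mouse.

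Hamp2 (chromosome 7, 30922372 to 30924681, minus strand) is the second hepcidin gene of the mouse, 17686 bases from Hamp and without a known part in iron regulation comparable to that of Hamp. Its levels were 885, 750 and 302 in WT low-fat and 793, 670 and 341 in WT high-fat libraries of mice 1, 2 and 3. In the KO mice they were 240, 1045 and 1831 in low-fat and 257, 1255 and 2293 in high-fat libraries. The order of the mice was not that of Hamp: WT mouse 1, the WT mouse with least Hamp, had the most Hamp2 of its genotype, and WT mouse 3 the least. Per base of the longest annotated transcript, the level of Hamp was 3.8 to 22.1 times that of Hamp2, with a median of 5.77 over the 12 libraries. The ratio was 22.1 and 17.5 in both libraries of WT mouse 3 but 3.99 and 4 in those of KO mouse 3. The transcripts are 94.6% identical over 410 bases, and 60 of 361 windows of 50 bases in Hamp (16.6%) also occur in Hamp2, so the split of reads between them depends on how the authors counted shared reads. Gm44662, an annotated noncoding gene on the opposite strand that shares 89 exon bases with Hamp2, was listed at 355 to 1698, and without strand, reads within those shared bases cannot be assigned to 1 of the 2 genes. It was at 833, 750 and 374 in WT low-fat and 399, 914 and 1537 in KO low-fat libraries of mice 1, 2 and 3. Within each genotype and fraction it ordered the mice as Hamp2 did. How far both genes share reads was not tested.

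**Figure D1:**
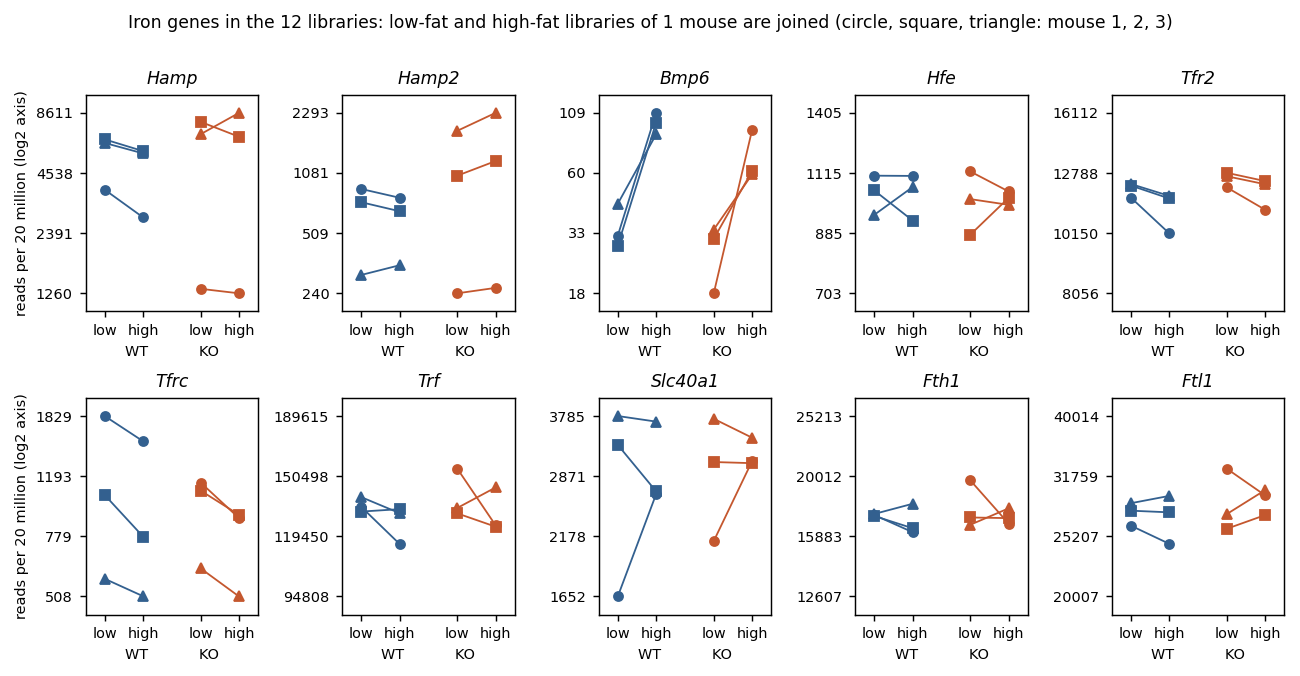
Level of each of the 10 genes in reads per 20 M (vertical log2 axis, a separate range for each gene) in low-fat and high-fat libraries of WT (blue) and KO mice (orange); a line joins both libraries of a mouse. The lines of Hamp, Hamp2 and Tfrc are set apart by mouse, and all 6 lines of Bmp6 go up, from 18 to 44 in low-fat to 59 to 109 in high-fat libraries.

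Bmp6, the endothelial ligand that induces hepcidin, was the member that separated the fractions. Bmp6 (chromosome 13, 38345107 to 38500302, plus strand) was at 32, 29 and 44 reads per 20 M in WT low-fat and 109, 99 and 88 in WT high-fat libraries. In the KO mice it was at 18, 31 and 34 in low-fat and 92, 61 and 59 in high-fat libraries. The lowest high-fat library lay above the highest low-fat library, and 6 of 6 mice had the higher level with high fat, by ratios of 1.74 to 5.11. Over both genotypes the difference was 1.30 on the log2 scale (2.46-fold, SE 0.18, limma adjusted p = 0.00272). Of the 16563 genes tested, 5.79% were called in this comparison, 4.96% of all genes tested were called as higher, and 4.84% showed no overlap between fractions. Bmp6 was the 1 of 10 members called. A higher value in all 6 mice was found for 9.57% of genes. Within WT the difference was 1.36 (SE 0.26, limma adjusted p = 0.0775), and within KO it was 1.24 (SE 0.26, limma adjusted p = 0.0467), where 0% and 1.03% of all genes were called. With a term for each mouse the limma adjusted p was 0.00555 over both genotypes, 0.0637 in WT and 0.059 in KO, so that the call within KO was lost. That fit called 1.09% of all genes in WT and 2.31% in KO. That call was also lost without any 1 of the 6 KO libraries, with adjusted p between 0.0592 and 0.218. Without the 4 libraries of the mice numbered 1 the difference over both genotypes was 1.07 (limma adjusted p = 0.0316).

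All 8 sinusoidal endothelial markers were called higher in high-fat libraries over both genotypes, with a median log2 difference of 1.70 against -0.05 for all genes tested, and so were 8 of 9 Kupffer cell markers (median 2.22) and 8 of 8 stellate cell markers (median 2.57). The part of these cells in the Bmp6 difference was not tested, and in bulk RNA more cells of a type and more message per cell cannot be told apart. By Pearson's r of log2 levels over the 12 libraries, among genes averaging 100 or more reads per 20 M, a limit above the level of Bmp6 in most libraries, the genes most like Bmp6 were Prex2 (r = 0.99), Ptprb (r = 0.98) and F8 (r = 0.97), of which Ptprb is in the endothelial marker list. The libraries share mice and the fraction difference, and r is given as a description. Bmp6 shares 224 exon bases with Txndc5 on the opposite strand, which was at 3836 to 5457 in all libraries and whose log2 difference between fractions was -0.17 (limma adjusted p = 0.319).

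Bmp2, the other endothelial ligand of hepcidin, was at 155, 129 and 147 in low-fat and 844, 363 and 382 in high-fat libraries of WT mice 1, 2 and 3. In the KO mice it was at 57, 123 and 89 in low-fat and 471, 352 and 238 in high-fat libraries. Like Bmp6 it showed no overlap between the fractions, and its log2 difference over both genotypes was 1.78 (3.43-fold, SE 0.23, limma adjusted p = 0.00236). It was called within KO (1.90, limma adjusted p = 0.029) and, with the mouse term, also within WT (1.65, limma adjusted p = 0.0455, against 0.0789 without). The KO call was lost without any 1 of the 6 KO libraries. Per base of the longest transcript, the Bmp2 level was 2.65 to 7.83 times that of Bmp6. With Hamp at a log2 difference of -0.21 between fractions (SE 0.54, 95% interval -1.39 to 0.98, limma adjusted p = 0.862) and Hamp2 at 0.00 (SE 0.6, 95% interval -1.30 to 1.31, limma adjusted p = 0.998), neither hepcidin gene was called where both ligands were higher. These intervals come from the fit without a mouse term and so include differences between mice. That of Hamp2 includes changes of more than 2-fold in either direction, and that of Hamp a fall of more than 2-fold. Within a mouse, the high-fat to low-fat ratio was 0.745 to 1.25 for Hamp and 0.893 to 1.25 for Hamp2. In the deposited values Hamp was lower with high fat in 5 of 6 mice and Hamp2 in 2 of 6. With the mouse term, Hamp within WT differed by -0.36 (SE 0.13, limma adjusted p = 0.189). Hamp2 within WT differed by -0.15 (SE 0.11, limma adjusted p = 0.434) in that fit. Neither was called over both genotypes with that term.

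Tfrc, the receptor that takes up iron-loaded transferrin, fell from the low-fat to the high-fat library within every mouse. Tfrc (chromosome 16, 32608920 to 32632794, plus strand) was at 1829, 1044 and 576 in WT low-fat and 1529, 777 and 509 in WT high-fat libraries of mice 1, 2 and 3. In the KO mice it was at 1140, 1077 and 620 in low-fat and 886, 907 and 508 in high-fat libraries. The groups overlapped widely because the mice differed 3.09-fold in their means, with mice numbered 3 lowest in both genotypes, while the high-fat to low-fat ratio stayed between 0.744 and 0.884. The log2 difference over both genotypes was -0.38 (0.769-fold). It was not called without a mouse term (SE 0.31, limma adjusted p = 0.517) and was called with it (SE 0.064, limma adjusted p = 0.00863), a fit that called 10.8% of all genes and 4.12% of all genes as lower. A lower value in all 6 mice was found for 12.3% of genes. Within WT and KO alone the adjusted p with the mouse term was 0.0793 and 0.0823.

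The other sensors differed little between libraries. Hfe (chromosome 13, 23702034 to 23710854, minus strand), whose product is released from transferrin receptor 1 when transferrin carries iron, was at 880 to 1122 in all 12 libraries, a span of 1.27-fold. Tfr2 (chromosome 5, 137569840 to 137587481, plus strand), the hepatocyte sensor of iron-loaded transferrin, was at 10142 to 12798. In 6 of 6 mice Tfr2 had its lower value with high fat, but by a log2 difference of -0.18 that was not called without (limma adjusted p = 0.277) or with the mouse term (0.159). The median difference of all genes was -0.05. Per base of the longest transcript, Tfr2 was 10.1 to 38.4 times as abundant as Tfrc.

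The transport and storage genes were the most abundant members and differed little. Trf (chromosome 9, 103204001 to 103230444, minus strand) encodes transferrin, the iron carrier of plasma, and was at 115983 to 154997 reads per 20 M. Gm20425, a same-strand gene model that shares 2108 exon bases with Trf, was listed at 98.3% to 99.1% of the Trf value in each library, so most of these reads entered both rows. Fth1 (chromosome 19, 9980598 to 9985098, plus strand) and Ftl1 (chromosome 7, 45457944 to 45459884, minus strand) encode the heavy and light chains of ferritin, the shell that stores iron. Fth1 was at 16137 to 19697 and Ftl1 at 24495 to 32683, with KO mouse 1 low-fat the highest library for both and for Trf. Ftl1 shares exon bases with Gm22133 (listed at 9900 to 13085) and with Gm10252 on the opposite strand (9260 to 12609), so part of its reads may be counted there too. The log2 difference between fractions was -0.18 for Trf, -0.13 for Fth1 and -0.09 for Ftl1, none called.

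Ferroportin (Slc40a1, chromosome 1, 45908068 to 45926523, minus strand) moved with the mouse. It was at 1652, 3315 and 3785 in WT low-fat and 2645, 2677 and 3689 in WT high-fat libraries, and at 2131, 3064 and 3737 in KO low-fat and 3077, 3048 and 3426 in KO high-fat libraries of mice 1, 2 and 3. The low-fat libraries of both mice numbered 1 were the lowest of their groups, and these mice had high-fat to low-fat ratios of 1.6 and 1.44, while the other 4 mice lay between 0.808 and 0.995. Over both genotypes the log2 difference was 0.04 (SE 0.21, limma adjusted p = 0.941). Kupffer cells also express ferroportin, and the same mice numbered 1 had Kupffer marker sums of 11426 and 9919 in their high-fat libraries against 2109 to 2360 in the other high-fat libraries. Their part in the ferroportin values was not tested.

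**Figure D2:**
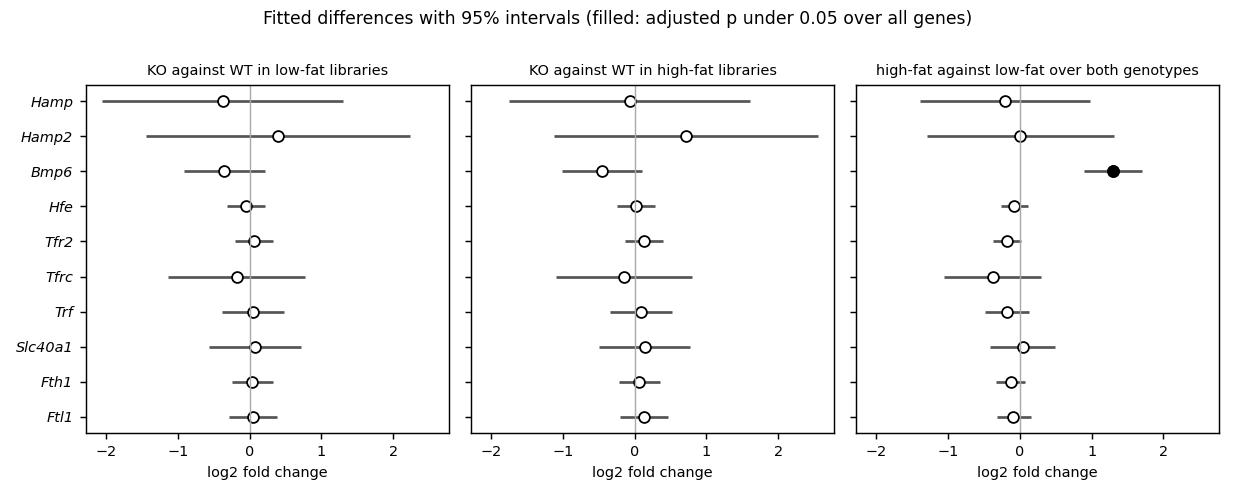
Fitted log2 fold changes (horizontal axis) of the 10 genes with 95% intervals as lines, for KO against WT in each fraction and for high-fat against low-fat over both genotypes; a filled point has a limma adjusted p under 0.05. Bmp6 between fractions, at 1.30, is the filled point, and the intervals of Hamp and Hamp2 are the widest in each panel. All intervals are from the fit without a mouse term, so those between fractions include differences between mice. Those of KO against WT count both libraries of a mouse as independent for the spread and may be too narrow.

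The genotype comparison asked whether loss of Ptprk moved these genes. In low-fat libraries 0 of 10 members were called by limma, against 0.00604% of all genes, which is Ptprk alone. In high-fat libraries it was again 0 of 10 against 0.00604%. With the replicate number as a block it was 0 of 10 in each fraction, against 0.00604% and 0.0121% of all genes. No member had an unadjusted p under 0.05, which 1.64% of genes had in low-fat and 1.94% in high-fat libraries. No member separated KO from WT libraries without overlap, against 4.97% and 4.51% of genes. The median log2 difference of the members was 0.04 in low-fat and 0.07 in high-fat libraries, and that of all genes -0.01 and 0.02.

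The intervals of the genotype difference were narrowest for Tfr2, Hfe and Fth1 and wider for the other members. In this fit both libraries of a mouse count as independent for the shared spread. With 3 mice per genotype, the genotype intervals given here and for hepcidin below may therefore be too narrow. For Tfr2 the KO against WT difference was 0.06 (95% interval -0.21 to 0.32) in low-fat and 0.13 (-0.13 to 0.40) in high-fat libraries. For Fth1 it was 0.04 (-0.24 to 0.32) and 0.06 (-0.22 to 0.35), and for Hfe -0.05 (-0.31 to 0.22) and 0.02 (-0.24 to 0.28). Trf was at 0.05 (-0.39 to 0.48) and 0.09 (-0.35 to 0.52), and Ftl1 at 0.05 (-0.28 to 0.38) and 0.13 (-0.20 to 0.46). Slc40a1 was less closely limited, at 0.08 (-0.56 to 0.71) and 0.14 (-0.50 to 0.77). Tfrc, whose interval allows a fall of more than 2-fold, differed by -0.18 (-1.13 to 0.77) and -0.15 (-1.10 to 0.80).

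For hepcidin the same comparison was imprecise. Hamp differed by -0.37 (SE 0.77, 95% interval -2.05 to 1.30) in low-fat and -0.07 (-1.75 to 1.60) in high-fat libraries. Without the mice numbered 1 these became 0.19 and 0.47. Leaving out 1 library at a time gave -0.80 to 0.43 in low-fat libraries, with the sign turned in 1 of 6 fits, and -0.66 to 0.85 in high-fat libraries, with the sign turned in 3 of 6 fits. Hamp2 differed by 0.40 (SE 0.84, 95% interval -1.44 to 2.24) and 0.71 (-1.13 to 2.55). The KO mean of Hamp2, 1039 ± 796 with low and 1268 ± 1018 with high fat (SD over 3 mice), came from 2 mice above and 1 mouse below every WT mouse. Bmp6 differed by -0.35 (SE 0.26, 95% interval -0.91 to 0.22) and -0.46 (-1.02 to 0.10). Its order of group means was WT high-fat at 98.7 ± 10.5, KO high-fat at 70.7 ± 18.5, WT low-fat at 35 ± 7.94 and KO low-fat at 27.7 ± 8.5 (SD, n = 3 each). The genotypes overlapped within each fraction, and the endothelial sums were lower in KO than in WT low-fat libraries, at 1150 to 2509 against 2741 to 3211. In high-fat libraries these sums overlapped, at 5030 to 9525 in KO and 6391 to 14580 in WT. Of the 8 endothelial markers, 0 were called for KO against WT in either fraction, against 0.00604% of all genes. The part of endothelial cells in the Bmp6 values was not tested. The interaction of genotype and fat fraction was called for 0 of 10 members and 0% of all genes (0.139% of genes, and no member, had an unadjusted p under 0.05).

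The variation of each member was divided over mice and fractions. Differences between the 6 mice held 96.5% of the variation of Hamp over the 12 libraries on the log2 scale, 98.6% of that of Hamp2, 87.1% of that of Tfrc and 83.4% of that of Slc40a1, where the median of all genes was 54.2%. For Bmp6 the mice held 9.72% and the fraction 80.1%, with a median of 12.6% for the fraction over all genes. The SD of log2 values was 0.977 for Hamp and 1.1 for Hamp2, against 0.132 for Hfe, 0.14 for Fth1, 0.157 for Tfr2, 0.16 for Ftl1 and 0.177 for Trf. The median over all genes was 0.231. The shares are descriptions of these 6 mice and carry no test. Genotype is part of the share of the mice, and made up 1.4% of the variation of Hamp and 6.98% of that of Hamp2.

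**Figure D3:**
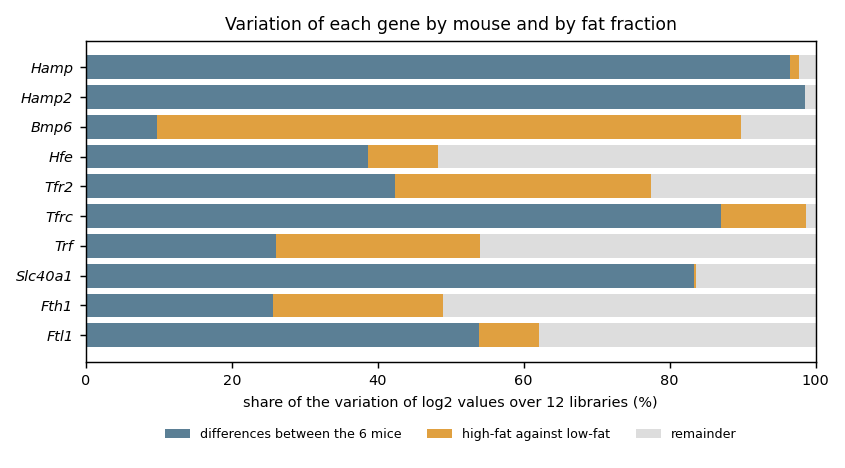
Share of the variation of log2 values over the 12 libraries (horizontal axis, %) held by differences between the 6 mice, by high-fat against low-fat, and by the remainder, for each of the 10 genes. Mice held 83.4% to 98.6% for Hamp, Hamp2, Tfrc and Slc40a1, and the fraction held 80.1% for Bmp6.

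By the same measure and limit over the 12 libraries, the genes closest to Hamp were Tbc1d32, Cradd and Klhl15 (r = 0.96 each), whose levels spanned 175 to 298, 232 to 306 and 133 to 205, far less than the 6.83-fold span of Hamp. Closest to Tfrc were Eif4enif1 (r = 0.95), Dnm1l (r = 0.94) and Gpr108 (r = 0.92). With 6 mice and 2 libraries of each, these r rest on few independent points.

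Of 21 other genes of hepcidin regulation, 1 was called between fractions over both genotypes without the mouse term, Bmp2, and 5 with it, against 5.79% and 10.8% of all genes tested. The 5 were Bmp2 and Smad6 as higher and Hfe2, Stat3 and Furin as lower. The median log2 difference of the list was -0.10 against -0.05 for all genes. Smad6, an inhibitor of BMP signalling that is also a target of it, was at 63 to 157 in low-fat and 131 to 282 in high-fat libraries and higher in 6 of 6 mice (0.78, SE 0.16, limma adjusted p = 0.0198 with the mouse term and 0.076 without). Endothelial cells also express Smad6, and the part of the endothelial markers given above in its difference was not tested. Hfe2, the gene of the BMP co-receptor hemojuvelin, was at 2089 to 3212 in low-fat and 1621 to 2715 in high-fat libraries (-0.30, adjusted p = 0.0243 and 0.208), and lower in the deposited values of 5 of 6 mice.

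Stat3, which carries the inflammatory signal to the Hamp promoter, was lower in 6 of 6 mice (-0.31, limma adjusted p = 0.0119 with the mouse term and 0.172 without). Furin, the protease that trims prohepcidin, was at 12090 to 13097 in low-fat and 9919 to 11875 in high-fat libraries without overlap (-0.26, limma adjusted p = 0.0472 and 0.0821). Tmprss6, the hepatocyte protease that restrains hepcidin by acting on hemojuvelin, was not called (-0.17, limma adjusted p = 0.334 without and 0.249 with the mouse term), nor was Id1, a target of the BMP pathway (0.22, SE 0.59, limma adjusted p = 0.87).

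Of 25 genes of iron and heme transport, 23 were tested, and Cd163 and Heph were called over both genotypes as higher. With the mouse term Steap2 and Slc39a14 were called as lower in addition. The shares of all genes called in these fits were 5.79% and 10.8%. The list median was -0.15. Cd163, the macrophage receptor for haptoglobin-bound hemoglobin, was at 9 to 47 in low-fat and 84 to 656 in high-fat libraries (2.66, SE 0.48, limma adjusted p = 0.00828), with the Kupffer sums given above moving the same way. Heph, a ferroxidase that works with ferroportin, was at 0 to 10 in low-fat and 10 to 42 in high-fat libraries (1.91, limma adjusted p = 0.0191). Its call was lost without the mice numbered 1 (1.30, limma adjusted p = 0.208). The low-fat values of Heph are a few reads, and it passed the filter through its high-fat libraries. The size of its difference therefore depends on the pseudocount. The part of other cells in the Cd163 and Heph values was not tested. Steap2, a metalloreductase, was at 320 to 593 in low-fat and 173 to 412 in high-fat libraries and lower in 6 of 6 mice (-0.79, limma adjusted p = 0.0029 with the mouse term and 0.0777 without). With the mouse term Steap2 was also called within WT (-0.84, limma adjusted p = 0.0455) and within KO (-0.73, limma adjusted p = 0.0336). Slc39a14, an importer of non-transferrin iron in hepatocytes, differed by -0.24 (limma adjusted p = 0.0411 and 0.229), and in the deposited values it was lower in 4 of 6 mice.

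Among 13 genes of heme synthesis and breakdown, Hmox1 was called as higher, and with the mouse term Blvrb also as higher and Alas2 as lower, with a list median of 0.01. These counts of 1 and 3 of 13 stand beside 5.79% and 10.8% of all genes called. Hmox1, heme oxygenase, was at 73 to 133 in low-fat and 147 to 629 in high-fat libraries (1.30, SE 0.34, limma adjusted p = 0.044). Its highest libraries, at 629 and 439, were the high-fat libraries of the mice numbered 1, which had the highest Kupffer sums, and without those mice it was not called (0.74, limma adjusted p = 0.134). The part of Kupffer cells in it was not tested. Blvrb, a biliverdin reductase, was at 684 to 1022 in low-fat and 1063 to 1417 in high-fat libraries without overlap (0.47, limma adjusted p = 0.00684 with the mouse term and 0.0607 without). None of the 5 genes of iron sensing was called in that comparison without or with the mouse term, and the list median was -0.12. Ireb2, an iron regulatory protein, differed by -0.06. None of the 10 genes of iron-sulphur cluster assembly was called either, between Hscb at -0.28 and Fdx1l at 0.09. In KO against WT and in the interaction, none of the tested genes of these 5 lists was called, and 0.00604% and 0% of all genes were.

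**Figure D4:**
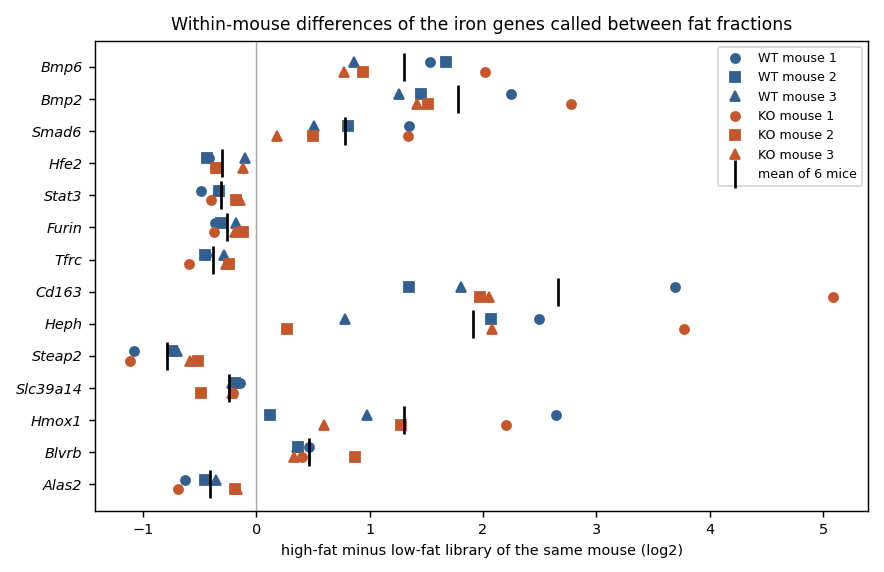
High-fat minus low-fat library of the same mouse on the log2 scale (horizontal axis) for the iron genes called between fractions without or with a term for each mouse; symbols are the 3 WT (blue) and 3 KO mice (orange), and black bars are the mean of the 6. All 6 mice lie to the right of 0 for Bmp6, Bmp2, Cd163 and Hmox1 and to the left for Tfrc, Steap2 and Alas2. The circles of the mice numbered 1 lie farthest out for several of these genes, among them Bmp2, Cd163, Heph, Hmox1 and Alas2.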

How the data were processed

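PolyA RNA of 12 hepatocyte libraries was sequenced. The authors deposited a score per gene: gene reads scaled to 20 M per library and rounded up, as read from the values themselves. The build mm9 is named in the submitters' processing notes. Aligner, counter, annotation and strandedness are not given in the sources used here. Positions are those of GENCODE M21 (GRCm38), joined by gene identifier.

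The filter kept the 16563 genes that reached 10 in 3 or more libraries, all 10 members among them. Values were rescaled by the trimmed mean of M values and taken as log2(value + 2), a scale that understates changes of low genes. limma 3.58.1 in R 4.3.3 fitted 4 group means over all 12 libraries, and two-sided p-values were adjusted by Benjamini-Hochberg over all genes, with calls under 0.05. A second fit added a term for each mouse (fractions, interaction) or replicate number (KO against WT). Pairing of fractions comes from the mouse names in the labels, and deviations of both libraries of a mouse correlated with a mean r of 0.34 (-0.011 to 0.581), against -0.167 for other mice of the genotype. WT and KO mice with 1 number are different mice, but same-numbered libraries of different mice also correlated, with a mean r of 0.274 (-0.174 to 0.491), against -0.134 for other numbers. On simulated data with 200 genes changed by 1 on the log2 scale, the fit recovered 52.5% of them for KO against WT in low-fat libraries. It recovered 65.5% between fractions over both genotypes, and the interaction with the mouse term recovered 0%. The simulated libraries were drawn independently, without differences between mice. These rates therefore cannot show what the mouse term recovers in the real libraries. Named genes were the members, Ptprk, pathway genes called in any comparison, those at the ends of each list's range (1 of them is not reported here), and the 3 genes most like Hamp, Bmp6 and Tfrc by Pearson's r, among genes with a mean of at least 100. Tmprss6, Id1, Atoh8 and genes overlapping a member were added after their values were seen. The members and lists were chosen with earlier results of these data known. Alternatives were another scaling, pseudocount or filter, fits of only the libraries compared, the block, leaving out libraries, and Hamp and Hamp2 summed.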

Additional observations from a re-analysis of the deposited data

How the results depend on the processing

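The Bmp6 difference between fractions over both genotypes stayed called under every alternative run, with log2 differences of 1.21 to 1.41 and adjusted p of 0.00425 to 0.0091 when 1 library was left out. The count of called members within KO, 1, became 0 with the deposited scaling alone (Bmp6 at 1.31), median-of-ratios size factors, no filter, only the libraries compared, the replicate block, the mice numbered 1 left out (an alternative chosen after seeing the data), and with each KO library left out. Over both genotypes the count of called members was 2 with the replicate block, with Tfrc added. The cause was not tested.

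Calls over all genes moved as follows. Within KO, 171 became 102 with the deposited scaling, 111 without the filter, 0 with only the libraries compared, 382 with the replicate block and 27 without the mice numbered 1, and 0 to 69 with 1 library left out. Within WT, 0 became 1 with a pseudocount of 10, 181 with the replicate block and 32 without the mice numbered 1, and 0 to 1 with 1 library left out. Over both genotypes, 959 became 1796 with the replicate block and 366 without the mice numbered 1, and 610 to 1149 with 1 library left out, the lowest without KO low-fat replicate 1. For KO against WT, the 1 gene called in low-fat libraries became 0 without the mice numbered 1. In high-fat libraries 1 became 0 with only the libraries compared and without those mice and 2 with the replicate block, and 0 to 1 with 1 library left out.

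Values of genes not called changed sign in these cases. With the deposited scaling alone, Hfe was at -0.02 in KO against WT in high-fat libraries and 0.01 between fractions, Hamp at 0.01 between fractions in KO, and Ireb2 at 0.03 between fractions. This scaling moved the median of all genes between fractions in WT from -0.07 to 0.04. With Hamp and Hamp2 summed, KO against WT was -0.29 in low-fat and 0.01 in high-fat libraries. Without the mice numbered 1, KO against WT in low-fat libraries was 0.19 for Hamp, 0.07 for Tfrc, -0.04 for Trf, -0.07 for Slc40a1, -0.04 for Fth1 and -0.09 for Ftl1. In high-fat libraries it was 0.47 for Hamp and 0.16 for Tfrc. Between fractions, Hamp in KO was at 0.06, and over both genotypes Hfe was at 0.02, Slc40a1 at -0.14 and Ftl1 at 0.04.

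With 1 library left out, KO against WT in low-fat libraries ranged from -0.80 to 0.43 for Hamp, -0.22 to 1.22 for Hamp2, -0.15 to 0.07 for Hfe, -0.56 to 0.25 for Tfrc, -0.05 to 0.12 for Trf, -0.27 to 0.34 for Slc40a1, -0.06 to 0.10 for Fth1 and -0.07 to 0.15 for Ftl1. In high-fat libraries it ranged from -0.66 to 0.85 for Hamp, -0.02 to 1.68 for Hamp2, -0.06 to 0.07 for Hfe, -0.49 to 0.25 for Tfrc, -0.05 to 0.18 for Trf and -0.02 to 0.14 for Fth1. Between fractions the range was -0.84 to 0.86 for Hamp in KO, -0.79 to 0.07 for Tfrc in WT, and, over both genotypes, -0.58 to 0.25 for Hamp, -0.12 to 0.17 for Slc40a1 and -0.15 to 0.02 for Ireb2. The interaction of Bmp6 ranged from -0.38 to 0.05.

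The replicate block changed no other call of a member. Bmp6 was low in every low-fat library (18 to 44 reads per 20 M), so read sampling adds to its spread.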

Other observations

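Alas2, the first enzyme of heme synthesis in red cell precursors, was at 2051 to 3765 reads per 20 M in every library, while the erythroid marker Hbb-bs reached at most 590, in KO low-fat replicate 2. In 6 of 6 mice Alas2 had its lower value with high fat (log2 difference -0.41, SE 0.079, limma adjusted p = 0.0143 with the mouse term and 0.0953 without). Its exons share 311 bases with Apex2 on the opposite strand, which was listed at 619 to 897. Erythroid sums were 20 to 1189 in low-fat and 15 to 228 in high-fat libraries, and their part in the Alas2 values was not tested.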
